A study of Mus musculus with 6 samples.

Results

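The transcripts of 10 integrin subunits were followed in Raw264.7 cells, a mouse macrophage line, in which *Etv5* had been targeted with a short hairpin RNA. The 10 genes were taken by symbol from the 24786 genes of the expression table. They were 7 alpha subunits (*Itga4*, *Itga5*, *Itga6*, *Itgal*, *Itgam*, *Itgav* and *Itgax*) and 3 beta subunits (*Itgb1*, *Itgb2* and *Itgb7*). RNA-sequencing covered 3 sh-NC libraries, from cells given lentivirus with a control hairpin, and 3 sh-Etv5 libraries, from cells given lentivirus with a hairpin against *Etv5*. All 6 libraries were labelled C57BL/6 and post natal day 21, and came from 1 line that originated in a tumor induced by Abelson leukemia virus. The strain and age are printed as labelled, although this line is generally described as derived from BALB/c. The labels put the expression check at 24 or 48 h after infection. The study's methods give the same times in their part on siRNA, and describe selection with puromycin for the lentivirus. Its results call the cells stably transfected, so the time that holds for these libraries is not settled. Which of the study's hairpins was sequenced is not given in the sources used here. Lower *Etv5* and any other difference between the cells of the groups cannot be told apart in this design. No source says whether the libraries within a group were separate cultures, so p-values measure only the spread between these libraries, which may be technical.

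Integrins are receptors of the cell surface in which 1 alpha and 1 beta subunit form a heterodimer, and the pairing decides what the receptor binds. In macrophages and other leukocytes, *Itgb2* (CD18) pairs with *Itgal* (CD11a) to form LFA-1, which binds ICAMs, with *Itgam* (CD11b) to form Mac-1, a receptor for complement fragments and fibrinogen, and with *Itgax* (CD11c). *Itgb1* pairs with *Itga4* to form VLA-4, which binds VCAM-1 and fibronectin, with *Itga5* to form the classical fibronectin receptor, with *Itga6* to form a laminin receptor, and with *Itgav*. *Itgb7* pairs with *Itga4* to form the gut-homing receptor for MAdCAM-1, and with *Itgae*. Transcript levels do not show how much of each heterodimer reached the cell surface.

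The bases before the annotated starts of 4 subunits are shown because *Itga4* had the largest fall and *Itgb7* the largest rise, and because *Itgam* and *Itgax* are neighbours that moved in opposite directions. Each is the 250 bases upstream of the gene's start in RefSeq (GRCm38.p6), written 5′ to 3′ on the gene's strand. Capitals mark matches, on either strand, to GAGGAA, the core that the macrophage ETS factor PU.1 prefers (reverse complement TTCCTC). The core CCGGAA, which ETV factors prefer (reverse complement TTCCGG), was also searched on both strands.
Itga4 (chr2:79255176-79255425, plus strand): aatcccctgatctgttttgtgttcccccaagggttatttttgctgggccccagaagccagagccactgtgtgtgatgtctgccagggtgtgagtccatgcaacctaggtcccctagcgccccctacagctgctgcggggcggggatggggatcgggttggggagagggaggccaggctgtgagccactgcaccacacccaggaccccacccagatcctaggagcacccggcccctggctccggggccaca
Itgb7 (chr15:102231936-102232185, minus strand): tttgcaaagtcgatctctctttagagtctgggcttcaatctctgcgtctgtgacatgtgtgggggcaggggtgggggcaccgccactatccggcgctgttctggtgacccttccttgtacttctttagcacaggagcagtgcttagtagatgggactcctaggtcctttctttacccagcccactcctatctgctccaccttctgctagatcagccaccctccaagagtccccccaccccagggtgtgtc
Itgam (chr7:128062390-128062639, plus strand): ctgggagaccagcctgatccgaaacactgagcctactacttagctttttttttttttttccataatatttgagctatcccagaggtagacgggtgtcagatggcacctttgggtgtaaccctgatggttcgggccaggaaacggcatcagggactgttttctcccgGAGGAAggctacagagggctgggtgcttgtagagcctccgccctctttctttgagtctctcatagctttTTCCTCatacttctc
Itgax (chr7:128129300-128129549, plus strand): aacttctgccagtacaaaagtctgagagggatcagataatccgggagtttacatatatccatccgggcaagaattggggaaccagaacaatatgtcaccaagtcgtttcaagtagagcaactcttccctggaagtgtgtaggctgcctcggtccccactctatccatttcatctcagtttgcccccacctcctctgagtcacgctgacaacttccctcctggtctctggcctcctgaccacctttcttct
RefSeq windows were matched for 7 of the 10 subunits, and *Itga6*, *Itgal* and *Itgb2* were the unmatched ones. CCGGAA was found in 0 of the 7 windows, against 12.2% of 27025 windows of the same length. GAGGAA was found in 4 of the 7, against 23.1% of all windows, with 2 matches each for *Itgam* and *Itgav*, 1 each for *Itga5* and *Itgb1*, and 0 for *Itga4*, *Itgax* and *Itgb7*. The motifs cannot share their GGAA core at one place, because the letters before it differ, and a match describes letters and not binding.

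Libraries were compared in RPKM, read counts scaled by transcript length and by the mapped reads of the library. The lengths used are not given in the sources used here. Level orders, ratios against 1 and shares between genes depend on those lengths, whereas the ratio of a gene's means between groups does not. The RPKM of all genes summed to between 320462 and 340257 per library, and 10409 to 10644 genes reached 1 RPKM. The number of reads behind each value is unknown. *Etv5*, the targeted transcription factor of the ETS family, stood at 9.18, 9.89 and 9.39 RPKM in sh-NC and at 5.19, 4.91 and 5.28 RPKM in sh-Etv5, so that it fell by 46.0% (limma adjusted p = 2.74e-07). Of 9 macrophage markers, 8 were above the filter on low values, and *Mertk* was at or near 0 in all libraries. *Csf1r*, *Cd68*, *Fcgr1* and *Lyz2* fell, *Adgre1*, *Spi1* and *Cd14* rose, and *Ptprc* did not pass the test. The call of *Spi1*, which encodes PU.1, was lost with equal RPKM sums (log2 fold change 0.09, limma adjusted p = 0.0778) and without the filter (limma adjusted p = 0.110). *Lyz2* was also lost without the filter (limma adjusted p = 0.0568), and *Ptprc* passed when sh-Etv5 replicate 1 was left out (log2 fold change 0.11, limma adjusted p = 0.0410). Of the 8 tested, 87.5% were called, against 74.3% of all genes tested. The 9 markers summed to 4456 to 4582 RPKM in sh-NC and 3454 to 3579 RPKM in sh-Etv5. Most of either sum was *Lyz2* (means of 2834 and 2041 RPKM), so it does not describe the 9 as a set. The part of these markers in the integrin results was not tested.

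Of the 10 subunits, 6 rose (*Itga5*, *Itga6*, *Itgal*, *Itgam*, *Itgb2* and *Itgb7*), 3 fell (*Itga4*, *Itgax* and *Itgb1*), and *Itgav* did not pass the test (limma on log2(RPKM + 1), Benjamini-Hochberg adjusted p under 0.05 over all genes tested). That count has to be read against a wide background, since 74.3% of the 10738 genes tested were called, 33.3% higher and 41.0% lower. An absolute log2 fold change above 1 was more sparing. It was passed, with the call, by 7 of the 10 subunits and by 9.23% of all genes tested. The libraries of sh-NC and sh-Etv5 did not overlap for any of the 10 subunits, as for 76.4% of all genes. The median log2 fold change of the 10 was 0.71, against -0.05 over all genes, and the median of its absolute value was 1.41 against 0.31. A total of 8 subunits reached the filter of 1 RPKM in both groups, of which 5 rose and 2 fell. *Itga6* passed it through sh-Etv5 alone and *Itgax* through sh-NC alone, so these 2 had to differ, and both are among the 7 counted above. The 10 subunits were also chosen with earlier results of these data known. Their share and medians beside those of all genes are therefore descriptions and not a test. In bulk RNA, fewer cells that carry a transcript and less of it per cell cannot be told apart.

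**Figure D1:**
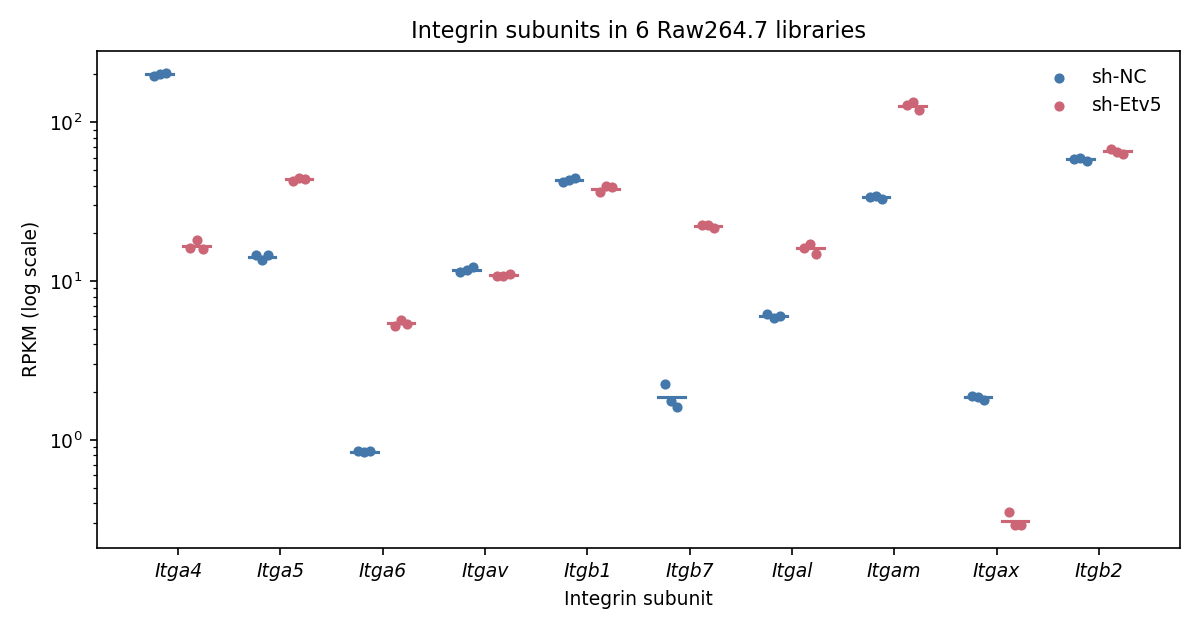
RPKM (log scale) of the 10 integrin subunits, with 1 point per library, horizontal lines for group means, and 3 libraries each of sh-NC (blue) and sh-Etv5 (red). *Itga4* dropped from about the top of the plot, at a mean of 200.4 RPKM, to 16.7 RPKM, while *Itgb7* went from 1.87 to 22.3 RPKM.

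*Itga4*, the alpha subunit of VLA-4, was at 195, 203 and 203 RPKM in sh-NC and at 16.1, 18.1 and 16.0 RPKM in sh-Etv5. It was the most abundant of the 10 in every sh-NC library, and no sh-Etv5 library came near that range. The mean fell from 200.4 ± 4.77 to 16.7 ± 1.20 RPKM (SD, n = 3), 12.0-fold lower (log2 fold change -3.51, SE 0.048, 95% confidence interval -3.61 to -3.40, limma adjusted p = 3.64e-13). *Itga4* occupies chromosome 2 from 79255426 to 79333123 on the plus strand (GRCm38, GENCODE M21), and its principal transcript has 28 exons. Exons of *Cerkl*, a gene on the opposite strand, overlap 1124 of its exonic bases (8.04%). *Cerkl* was at 16.8, 18.9 and 17.9 RPKM in sh-NC and at 2.09, 1.95 and 2.63 RPKM in sh-Etv5, 8.03-fold lower. Whether counting used strand is not given in the sources used here, so reads from the shared bases cannot be assigned to one of the pair.

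*Itga5*, the alpha subunit of the fibronectin receptor, was at 14.6, 13.6 and 14.6 RPKM in sh-NC and at 43.0, 44.8 and 43.7 RPKM in sh-Etv5. The groups were well apart, and the mean rose 3.07-fold from 14.3 ± 0.570 to 43.9 ± 0.921 RPKM (SD, n = 3; log2 fold change 1.55, SE 0.043, limma adjusted p = 1.23e-10). *Itga5* is on chromosome 15, minus strand, at 103344286 to 103366763. *Itga6*, a laminin-receptor subunit, was at 0.850, 0.837 and 0.848 RPKM in sh-NC and at 5.19, 5.73 and 5.37 RPKM in sh-Etv5. All 3 sh-NC libraries were below 1 RPKM, and the ratio of the means was 6.42 (log2 fold change 1.80, SE 0.069, limma adjusted p = 1.55e-09). The 1 RPKM added before taking logs understates the change of such low genes. *Itga6* lies on chromosome 2 from 71745616 to 71858416.

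*Itgav*, the alpha subunit of the vitronectin receptors, was at 11.4, 11.7 and 12.3 RPKM in sh-NC and at 10.7, 10.8 and 11.1 RPKM in sh-Etv5. The groups did not overlap, yet the mean differed by -7.93% and the call was missed (log2 fold change -0.11, 95% confidence interval -0.22 to 0.00015, limma adjusted p = 0.0661). With libraries rescaled to the same RPKM sum it passed (log2 fold change -0.17, limma adjusted p = 0.0127). *Itgav* lies on chromosome 2 from 83724397 to 83806916, and 5.9% of its exonic bases overlap *Gm13684* on the opposite strand, which the table does not list.

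*Itgb1*, the common partner of these 4 alpha subunits, was at 41.8, 43.1 and 44.4 RPKM in sh-NC and at 36.3, 39.6 and 38.9 RPKM in sh-Etv5. The lowest sh-NC library stood just above the highest sh-Etv5 library. Its mean fell from 43.1 ± 1.31 to 38.3 ± 1.76 RPKM (SD, n = 3; -11.2%, log2 fold change -0.17, SE 0.044, limma adjusted p = 0.00468). *Itgb1* lies on chromosome 8 from 128685654 to 128733200.

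*Itgb7*, the other beta partner of *Itga4*, was at 2.25, 1.76 and 1.61 RPKM in sh-NC and at 22.6, 22.5 and 21.6 RPKM in sh-Etv5. It was near the bottom of the 10 in sh-NC and above *Itga4* in every sh-Etv5 library. The mean rose 11.9-fold, from 1.87 ± 0.338 to 22.3 ± 0.572 RPKM (SD, n = 3; log2 fold change 3.02, SE 0.079, limma adjusted p = 7.70e-11). *Itgb7* is on chromosome 15, minus strand, at 102215995 to 102231944, and its 50-base stretches occur in no other annotated gene. *Itgae*, the other alpha partner of *Itgb7*, did not exceed 0.102 RPKM in any library.

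Among the leukocyte integrins, *Itgam*, the alpha subunit of Mac-1, was at 34.1, 34.3 and 32.9 RPKM in sh-NC and at 129, 133 and 119 RPKM in sh-Etv5. It became the most abundant of the 10 subunits, and its spread over the sh-Etv5 libraries was small beside the gap between groups. The mean rose 3.77-fold from 33.8 ± 0.746 to 127 ± 7.21 RPKM (SD, n = 3; log2 fold change 1.88, SE 0.044, limma adjusted p = 3.20e-11). *Itgam* lies on chromosome 7 from 128062640 to 128118491. A further gene model on the same strand, *Gm49368*, covers 68.7% of its exonic bases and holds 66.3% of its 50-base stretches, so reads counted for *Itgam* could be split with it where an annotation holds both. The table does not list *Gm49368*.

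*Itgal*, the alpha subunit of LFA-1, was at 6.22, 5.87 and 6.06 RPKM in sh-NC and at 16.3, 17.1 and 14.8 RPKM in sh-Etv5. It rose 2.66-fold, from 6.05 ± 0.176 to 16.1 ± 1.13 RPKM (SD, n = 3; log2 fold change 1.27, SE 0.059, limma adjusted p = 6.82e-09). *Itgal* lies on chromosome 7 from 127296260 to 127335138. *Itgax*, which encodes CD11c, a surface marker of dendritic cells and of some tissue macrophages, moved the other way. It was at 1.89, 1.88 and 1.79 RPKM in sh-NC and at 0.350, 0.291 and 0.291 RPKM in sh-Etv5. All sh-Etv5 libraries were thus below 1 RPKM, 5.96-fold lower by the means (log2 fold change -1.12, SE 0.080, limma adjusted p = 2.16e-07). With 0.01 RPKM added in place of 1 before taking logs, its log2 fold change was -2.54.

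*Itgax* lies on chromosome 7 from 128129547 to 128150657, 11055 bases beyond the end of *Itgam* and on the same plus strand, so these neighbours moved in opposite directions. It shares 8.02% of its 50-base stretches with *Itgad*, which did not exceed 0.0391 RPKM. The 4 dendritic cell markers (*Flt3*, *Zbtb46*, *Xcr1* and *Ccr7*) summed to 0.685 to 1.03 RPKM in sh-NC and to 0.340 to 0.387 RPKM in sh-Etv5, with *Flt3* at or near 0. That sum was carried by *Zbtb46*, at means of 0.756 and 0.148 RPKM, whereas *Xcr1* (0.0444 and 0.138 RPKM) and *Ccr7* (0.00849 and 0.0697 RPKM) were higher in sh-Etv5 without overlap, all 4 being too low to be tested. The neutrophil list, whose cells also carry *Itgam*, summed to 0.123 to 0.532 RPKM in sh-NC and 15.6 to 19.7 RPKM in sh-Etv5. Nearly all of this was *S100a8*, which macrophages can also express. *Ly6g* and *Elane* were at 0 in all 6 libraries, and *Mpo* and *Ngp* did not exceed 0.0417 RPKM.

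*Itgb2*, the partner of these 3 alpha subunits, was at 58.9, 59.9 and 57.4 RPKM in sh-NC and at 68.4, 65.2 and 63.0 RPKM in sh-Etv5. The difference was small, 11.6% of the mean (58.7 ± 1.26 to 65.5 ± 2.71 RPKM, SD, n = 3; log2 fold change 0.16, SE 0.039, limma adjusted p = 0.00412). It was lost with libraries rescaled to the same RPKM sum (log2 fold change 0.09, limma adjusted p = 0.0549). *Itgb2* lies on chromosome 10 from 77530252 to 77565708. Both common beta subunits, *Itgb1* and *Itgb2*, thus changed by little beside most of the alpha subunits.

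**Figure D2:**
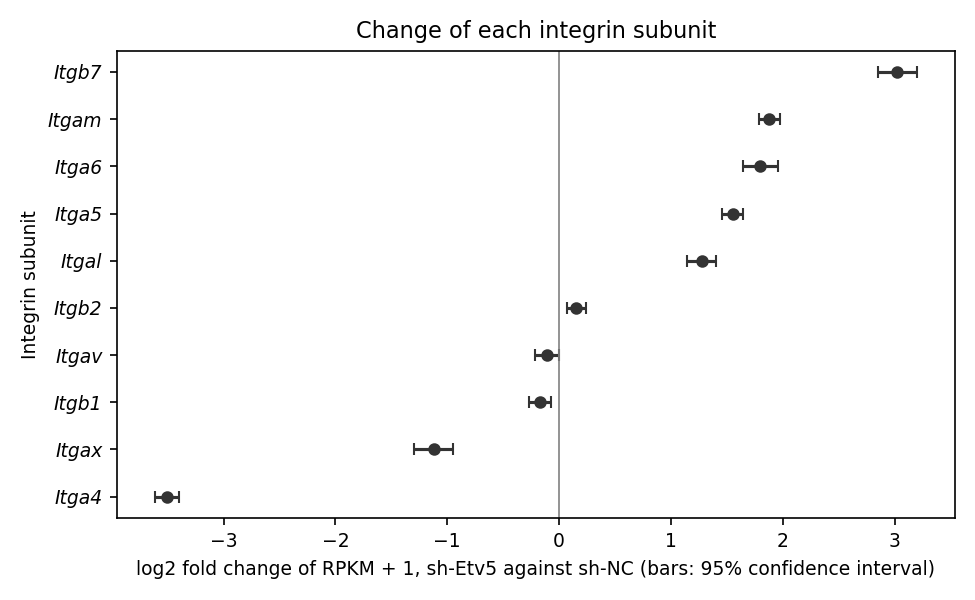
Log2 fold change of RPKM + 1 in sh-Etv5 against sh-NC for each subunit (n = 3 libraries per group), with bars for the 95% confidence interval of the limma fit. *Itgb7* (3.02) and *Itga4* (-3.51) stand at the ends, while *Itgb2* (0.16), *Itgav* (-0.11) and *Itgb1* (-0.17) lie close to 0.

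The order of the levels differed between the groups. In sh-NC it ran *Itga4*, *Itgb2*, *Itgb1*, *Itgam*, *Itga5*, *Itgav*, *Itgal*, *Itgb7*, *Itgax*, *Itga6*, from high to low. *Itgb7* and *Itgax* were the neighbours in that order whose libraries overlapped. In sh-Etv5 it ran *Itgam*, *Itgb2*, *Itga5*, *Itgb1*, *Itgb7*, *Itga4*, *Itgal*, *Itgav*, *Itga6*, *Itgax*, and *Itga4* and *Itgal* were the neighbours that overlapped. *Itgb2* was in the next-to-highest place in both groups.

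The ratio of an alpha subunit to its beta partner within a library does not depend on how that library was scaled. Whether it lies above or below 1 does depend on the gene lengths used, which are not given. The ratio was computed for 8 pairs. For 7 of them the ratios of the groups did not overlap. No share over all gene pairs was computed, but the levels of 76.4% of all genes tested did not overlap either. The pairs also share subunits, so they are not independent. With 3 libraries against 3, the exact two-sided permutation test cannot give p below 0.1, which was its value for each of these 7 pairs (0.114 after Benjamini-Hochberg adjustment over the 8 pairs). No pair could therefore reach the 0.05 threshold, and the ratios are given by their sizes and spreads.

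The largest shift was that of *Itga4* to *Itgb7*. The ratio was 86.5, 115.5 and 126.7 in sh-NC and 0.710, 0.804 and 0.742 in sh-Etv5, so that *Itga4* was in large excess in every sh-NC library and below *Itgb7* in every sh-Etv5 library. The log2 ratio changed by -7.17. For *Itga4* to *Itgb1*, the ratio went from 4.65 ± 0.0660 to 0.437 ± 0.0235 (SD, n = 3), a log2 change of -3.41, and so passed from above 1 to below it. *Itga5* to *Itgb1* crossed in the opposite direction, from 0.332 ± 0.0166 to 1.15 ± 0.0340 (log2 change 1.79). *Itga6* to *Itgb1* stayed far below 1, going from 0.0196 ± 0.000634 to 0.142 ± 0.00348 (log2 change 2.86). *Itgav* to *Itgb1* was the pair whose groups overlapped, at 0.274 ± 0.00323 and 0.284 ± 0.0113 (log2 change 0.05, exact permutation p = 0.2, also 0.2 after adjustment).

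Among the partners of *Itgb2*, the *Itgam* ratio passed from below 1 to above it, from 0.575 ± 0.00332 to 1.94 ± 0.0924 (SD, n = 3; log2 change 1.75). *Itgal* to *Itgb2* went from 0.103 ± 0.00438 to 0.245 ± 0.0145 (log2 change 1.25). *Itgax* to *Itgb2* went from 0.0316 ± 0.000452 to 0.00474 ± 0.000345 (log2 change -2.74, or -1.28 with 1 RPKM added to both). The *Itgb2* partners thus did not move together, since *Itgam* and *Itgal* gained on *Itgb2* and *Itgax* lost.

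**Figure D3:**
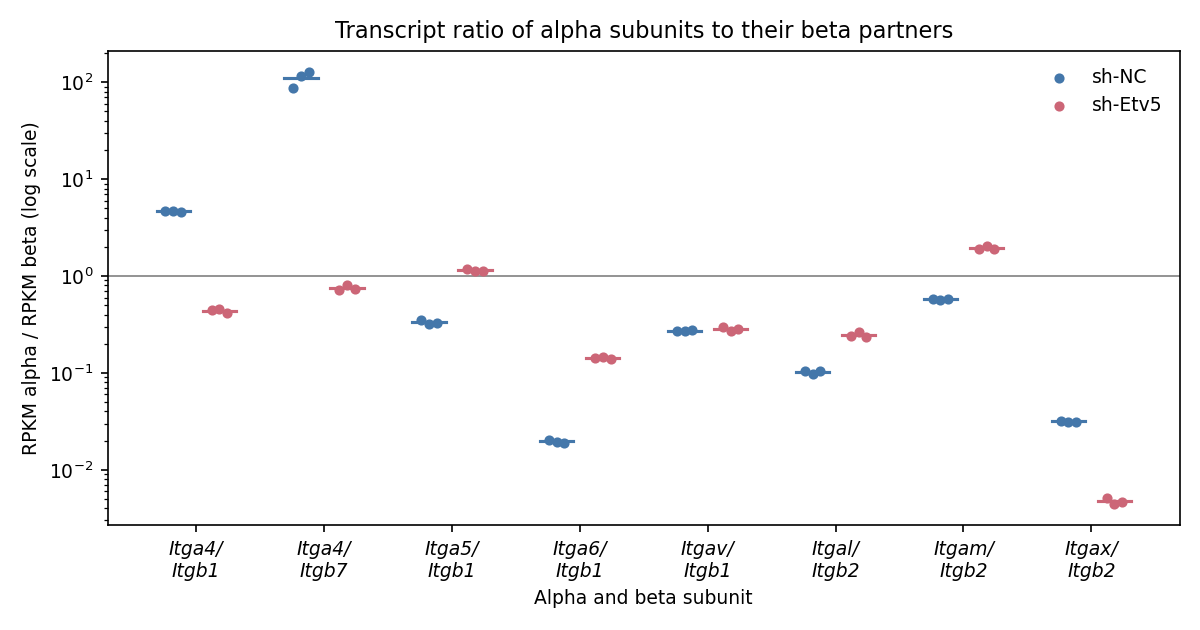
RPKM of each alpha subunit over RPKM of its beta partner (log scale), with 1 point per library, lines for group means and a grey line at a ratio of 1. *Itga4* fell below both of its partners in sh-Etv5, *Itga5* and *Itgam* rose above theirs, and *Itgav* to *Itgb1* was 0.274 in sh-NC and 0.284 in sh-Etv5.

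Summed over their alpha subunits among the 10 genes, the families of *Itgb1* and *Itgb2* moved in opposite directions. The fall of the *Itgb1* sum was that of *Itga4* (200.4 to 16.7 RPKM), while *Itga5* and *Itga6* rose and *Itgav* was not called. *Itga4* and *Itgav* were counted in full, although they also pair with other beta subunits, and *Itga7*, a further partner of *Itgb1*, was left out. The 4 alpha partners of *Itgb1* among the 10 genes summed to 227 ± 4.97 RPKM in sh-NC and 76.9 ± 2.33 RPKM in sh-Etv5 (SD, n = 3), which was 5.27 and 2.01 times the level of *Itgb1*. The 3 alpha partners of *Itgb2* summed to 41.7 ± 0.787 and 143.5 ± 8.35 RPKM, or 0.710 and 2.19 times the level of *Itgb2*. The make-up of the first sum was turned over. *Itga4* held 88.1% of it in sh-NC and 21.8% in sh-Etv5, whereas *Itga5* held 6.29% and then 57.0%. *Itga6* went from 0.372% to 7.06%, and *Itgav* from 5.19% to 14.1%. That gain in the share of *Itgav* came with no rise in its level. In the second sum *Itgam* led in both groups, with 81.0% and 88.6%, *Itgal* held 14.5% and 11.2%, and *Itgax* 4.45% and 0.217%.

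**Figure D4:**
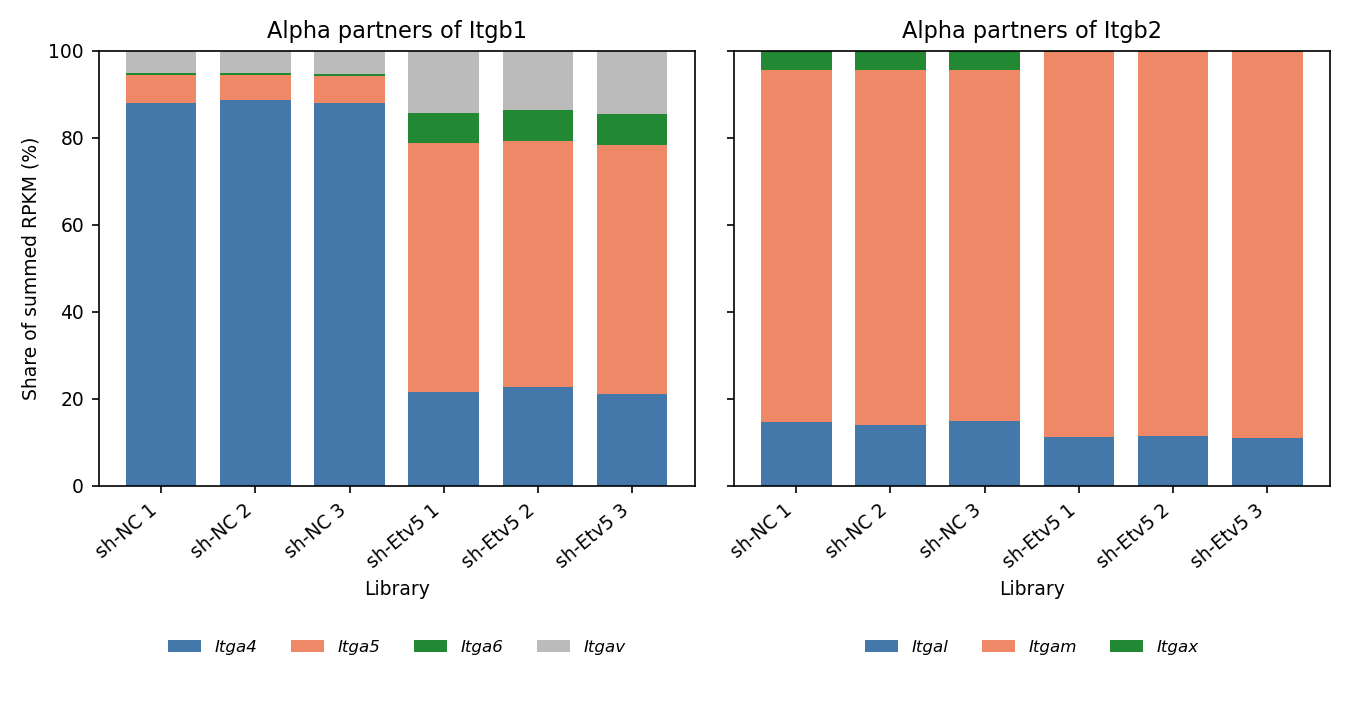
Share (%) of each alpha subunit in the summed RPKM of the alpha partners of *Itgb1* (left) and *Itgb2* (right), with 1 bar per library. On the left *Itga4* gives way to *Itga5* as the main component (88.1% to 21.8% against 6.29% to 57.0%), and on the right *Itgam* leads in all 6 libraries.

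Of 17 other integrin subunits, 2 were above the filter. *Itga7*, a laminin-binding partner of *Itgb1*, was at 1.16, 1.11 and 1.09 RPKM in sh-NC and at 5.61, 5.18 and 5.59 RPKM in sh-Etv5 and rose (log2 fold change 1.61, limma adjusted p = 3.25e-09). *Itgb5*, a partner of *Itgav*, was at 9.25, 8.87 and 9.72 RPKM in sh-NC and at 8.01, 7.48 and 7.01 RPKM in sh-Etv5 and fell (log2 fold change -0.28, limma adjusted p = 0.00175). The other 15 were at most 0.984 RPKM and were not tested. Among them *Itgb3*, which forms the vitronectin receptor with *Itgav*, was at 0.318 to 0.508 RPKM in sh-NC and 0.228 to 0.325 RPKM in sh-Etv5, and *Itgb8*, a further partner of *Itgav*, was at 0 throughout. *Itgb4*, the other partner of *Itga6*, was at 0.435 to 0.543 RPKM in sh-NC and 0.820 to 0.984 RPKM in sh-Etv5.

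Of 22 ligands and counter-receptors of integrins, 8 were tested, of which 4 rose, 0 fell and 4 did not pass. The 50% called stands against 74.3% of all genes tested. Without a filter, *F11r* and *Jam2* were called lower, with equal RPKM sums *Icam1* was, and with quantile normalization *C3* was (log2 fold change -0.25, limma adjusted p = 0.0248). The largest rises were those of *Spp1*, which encodes osteopontin and went from 2276 to 11497 RPKM (log2 fold change 2.34, or 1.36 with quantile normalization), *Lamc1*, a laminin chain (14.9 to 44.2 RPKM, log2 fold change 1.51), and *Mfge8*, a bridge between apoptotic cells and *Itgav* integrins (26.7 to 33.5 RPKM, log2 fold change 0.32). *Icam1*, a counter-receptor of *Itgb2* integrins, was at 44.2 RPKM in sh-NC and 42.9 RPKM in sh-Etv5 (limma adjusted p = 0.337), and passed with equal RPKM sums (log2 fold change -0.10, limma adjusted p = 0.0274). *Vcam1* and *Madcam1*, which are counter-receptors of the *Itga4* integrins, were at 0 in all 6 libraries. *Jam2*, a further one, was at 0.664 to 0.942 RPKM in sh-NC and 0.114 to 0.160 RPKM in sh-Etv5.

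Of 39 genes of integrin activation and adhesion complexes, 31 were tested, of which 9 rose, 15 fell and 7 did not pass, so that 77.4% were called, close to the 74.3% of all genes tested. The largest rises were those of *Fyb*, the adaptor ADAP (log2 fold change 1.16), *Rap1b*, a small GTPase that activates integrins (1.11), and *Syk*, a kinase that signals from *Itgb2* integrins (0.91). The largest falls were those of *Parvg*, a parvin of leukocytes (-0.86), *Tln2*, a talin (-0.70), and *Rassf5*, a Rap1 effector known for LFA-1 activation (-0.59).

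**Figure D5:**
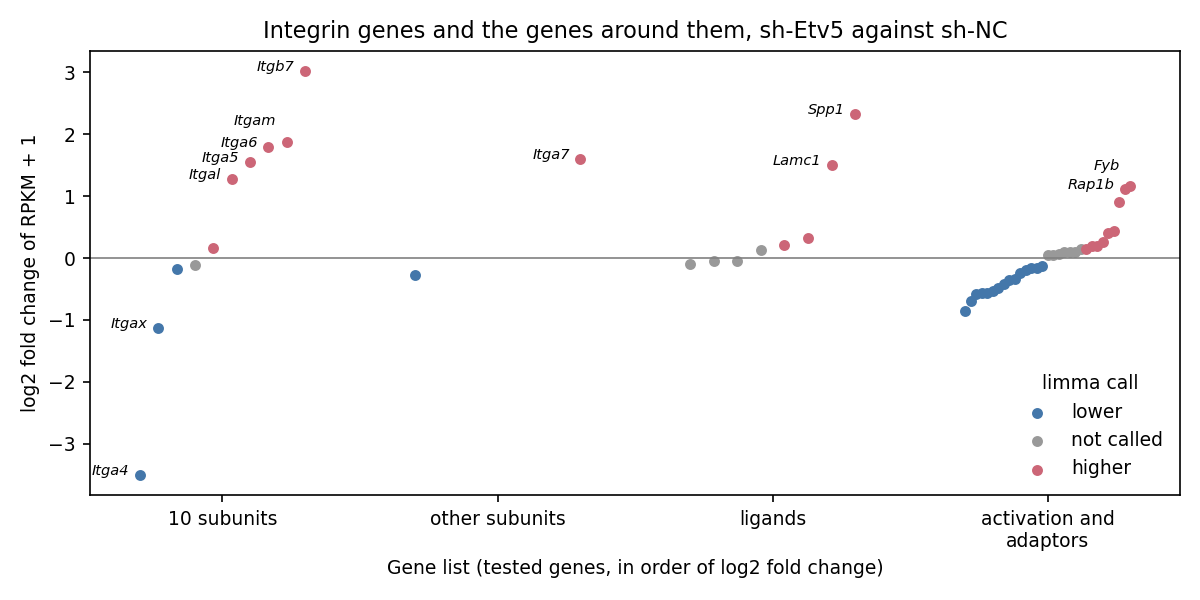
Log2 fold change of RPKM + 1 (sh-Etv5 against sh-NC) for the tested genes of the 10 subunits, other subunits, ligands, and activation and adaptor genes, with 1 point per gene, coloured by the limma call. Names are given beyond an absolute value of 1, which 7 of the 10 subunits and 2 of the 31 activation and adaptor genes exceed. *Itga7* among the other subunits and *Spp1* and *Lamc1* among the ligands also exceed it. With the call, 9.23% of all genes tested did so. The 7 subunits include *Itga6* and *Itgax*, which passed the filter through 1 group alone.

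The genes whose pattern over the 6 libraries was nearest to the subunits at the extremes were found by Euclidean distance of log2(RPKM + 1), centred per gene. For *Itgb7* they were *Ier3* (distance 0.188, log2 fold change 3.06), *Sez6l2* (0.188, 2.99) and *Chac1* (0.201, 2.87). For *Itga4* they were *Ranbp3l* (0.639, -4.02), *Cldn11* (0.647, -3.01) and *Scel* (0.670, -3.01), which is a looser match than for *Itgb7*. Centring removes the level, so a near gene is mainly one with a group difference of like size and direction. *Sez6l2* passed the filter through sh-Etv5 alone, and *Ranbp3l* and *Scel* through sh-NC alone, so these had to differ.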

How the data were processed

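RNA from 3 sh-NC and 3 sh-Etv5 libraries had been prepared with a TruSeq kit and sequenced. The authors deposited 1 table of RPKM values for all genes, mapped to mm10 per the submitters' processing notes. The aligner, counter, annotation and strand setting are not given in the sources used here, and read depth is unknown. Each column was assigned to a library by its name.

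A gene was tested if 3 or more libraries had at least 1 RPKM of it (10738 of 24786). Values were compared as log2(RPKM + 1) in R 4.3.3 by limma 3.58.1 (two-sided, eBayes with trend, no covariate), and Benjamini-Hochberg adjusted p-values under 0.05 over all tested genes were called. The fit was tested on simulated data. Fold changes are on the log2(RPKM + 1) scale unless given as ratios of means. Alpha to beta ratios were compared by exact permutation. Ratios, sums and figures were made with matplotlib 3.10.9, pandas 2.3.3, SciPy 1.17.1 and NumPy 2.4.6 under Python 3.11.15. Positions, overlaps and shared 50-base stretches came from GENCODE M21 (GRCm38), and upstream sequences from RefSeq (GRCm38.p6).

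The 10 subunits, the gene lists and the tests were chosen with earlier results of these data known. Named genes were the 10 subunits, *Etv5*, the 3 largest called rises and falls of each list, beta partners of *Itgav* and *Itga6*, macrophage markers, and the 3 genes nearest in pattern to the subunits with the largest rise and fall. *Itgae*, *Itgad*, *Icam1*, *C3*, *Vcam1*, *Madcam1*, *Cerkl*, *F11r*, *Jam2*, the other overlapping gene models and the named markers of other cell types were added after values were seen. T cell, B cell, fibroblast and epithelial lists were also read. Their sums did not exceed 0.367 RPKM in any library, apart from the T cell list, at 1.08 to 1.65 RPKM in sh-NC and 4.00 to 4.21 RPKM in sh-Etv5, nearly all from *Lck*.

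Alternatives were each library left out, a replicate block, no trend, equal RPKM sums, quantile normalization, a mean of at least 5 RPKM, no filter, and pseudocounts of 0.1 or 0.01. Protein sequences were not used here.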

Additional observations from a re-analysis of the deposited data

How the results depend on the processing

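The fold changes of the 10 subunits kept their direction in all 138 alternatives run, and their call in 136, the exceptions being *Itgav* and *Itgb2* with equal RPKM sums, where 5 subunits rose and 4 fell. In the 60 fits that left out 1 library, every subunit kept its call. With a mean of at least 5 RPKM, *Itga6* and *Itgax* were not tested. The log2 fold change ranged from -3.58 to -3.48 for *Itga4*, 1.71 to 2.67 for *Itga6*, -2.54 to -1.11 for *Itgax* and 2.96 to 3.58 for *Itgb7*, with the wide ranges at low RPKM, where the pseudocount weighs most. Of the other subunits, 4 were called higher without a filter and 0 with a mean of at least 5 RPKM (1 as reported). Of the ligands, 2 were called lower without a filter, and 1 each with equal RPKM sums and with quantile normalization (0 as reported). Without sh-Etv5 replicate 1, 5 ligands were called higher (4 as reported). Over the alternatives, 7 to 10 activation and adaptor genes were called higher (9 as reported) and 13 to 15 lower (15 as reported). The 7 came with equal RPKM sums and with quantile normalization. With 1 RPKM added to both members of a ratio, the log2 change was -6.53 for *Itga4* to *Itgb7*, 1.97 for *Itga6* to *Itgb1*, 1.12 for *Itgal* to *Itgb2* and -1.28 for *Itgax* to *Itgb2*. With quantile normalization it was 2.63 for *Itga6* to *Itgb1* and -3.08 for *Itgax* to *Itgb2*. No ratio reversed in 72 alternatives. The cause of these shifts was not tested. With the replicate number as a block, 6 subunits rose and 3 fell, as without it, 3539 genes were called higher and 4361 lower over all genes, and 8 activation and adaptor genes rose (9 without it). Libraries of the same number showed no clear shared deviation (correlations 0.0739, -0.0710 and -0.0352), and only replicate 1 was best matched by its own number. These values cannot exclude a pairing. The unknown read depth leaves the counting error of *Itgax* and *Itga6* unknown.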

Other observations

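The ligands *F11r* and *Jam2* were below the filter and entered the test only in the fit without one, in which both were lower (log2 fold change -0.40, limma adjusted p = 0.0481 for *F11r*, and -0.67, limma adjusted p = 0.00163 for *Jam2*). *F11r* (JAM-A), a counter-receptor of LFA-1, was at 0.734, 1.01 and 1.14 RPKM in sh-NC and at 0.520, 0.364 and 0.582 RPKM in sh-Etv5. *Jam2* (JAM-B), a counter-receptor of VLA-4, was at 0.664, 0.942 and 0.853 RPKM in sh-NC and at 0.114, 0.139 and 0.160 RPKM in sh-Etv5. For either gene the groups did not overlap, and both were low beside the integrin subunits that bind them.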
